A study of Mus musculus with 8 samples.

Results

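The myogenic basic helix-loop-helix (bHLH) factors are Myod1, Myf5, Myog and Myf6, the 4 genes of mouse whose proteins drive cells into the skeletal muscle lineage. All 5 probe sets annotated to these genes were taken, 4 on array type A and 1 on array type B, out of 35041 probe sets with 1 gene symbol. At the gene level they are 4 of 18193 genes on the arrays. Of the 4, 3 were above the signal floor in at least 1 RNA, and Myf5 was not.

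Primary mouse myotubes, the multinucleated product of fused muscle precursors, were cultured and their total RNA was hybridised to expression arrays. The series holds 4 RNAs, each on 1 array of type A and 1 of type B, so 8 arrays in all. The labels name 1 RNA truncated Egr3, grown, and 1 RNA wildtype, grown. RNA275 has the label acclimatization and RNA276 has no stated condition, so these RNAs belong to no group and their values are given without entering the comparison. The zinc-finger factor Egr3 is needed by muscle spindles, and the series asks which genes it regulates in myotubes. The labels do not say how the truncation was made, whether wildtype means the protein or the cells, or how many cultures an RNA came from. With 1 RNA a group there is no replicate check and no p-value, and each difference describes those RNAs.

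The 4 factors bind E-boxes, the DNA letters CANNTG, as dimers with broadly expressed E proteins, and Id proteins block them by taking the E proteins away. Myf5 and Myod1 commit precursors to the muscle lineage. Myog drives myoblasts into terminal differentiation and fusion. Myf6, also called MRF4, is the member that predominates in adult muscle fibres. Myf5 and Myf6 lie side by side on chromosome 10, with no protein-coding gene between them in the RefSeq annotation of GRCm38.p6, while Myod1 is on chromosome 7 and Myog on chromosome 1.

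Promoter sequence was given for 2 of the 4 members, from RefSeq on the GRCm38.p6 build, each with 250 bases before the gene's start and 50 after it. Both are shown because Myog was above the signal floor in every RNA and Myf5 was below it in every RNA. Capitals mark E-boxes (CANNTG) and a MEF2-type core (CTANNNNTA), searched on both strands.
Myog, chr1:134289754-134290053, + strand: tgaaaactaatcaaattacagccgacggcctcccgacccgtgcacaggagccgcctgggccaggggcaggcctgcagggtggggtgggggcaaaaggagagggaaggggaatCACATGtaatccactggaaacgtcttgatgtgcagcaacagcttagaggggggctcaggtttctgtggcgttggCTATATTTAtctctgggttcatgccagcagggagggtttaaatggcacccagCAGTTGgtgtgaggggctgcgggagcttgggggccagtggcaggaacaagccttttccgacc
Myf5, chr10:107486085-107486384, - strand: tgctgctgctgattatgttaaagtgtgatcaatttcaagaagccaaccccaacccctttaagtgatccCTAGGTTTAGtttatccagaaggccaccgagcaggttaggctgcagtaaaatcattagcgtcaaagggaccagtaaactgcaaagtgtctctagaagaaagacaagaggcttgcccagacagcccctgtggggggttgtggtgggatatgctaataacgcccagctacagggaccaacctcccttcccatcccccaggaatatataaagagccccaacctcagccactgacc

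The Myog window held 2 E-boxes and 1 MEF2-type core. The Myf5 window held no E-box and 2 MEF2-type matches that overlap, on opposite strands of 1 stretch. The letters searched allow any base at the N positions, so a match need not be a MEF2 site. Those positions held only A and T in the Myog match but not in the Myf5 matches. Neither window held the EGR site searched here (GCGNGGGCG). Of 32851 promoter windows of the same length, 72.3% held at least 1 E-box, 39.6% held 2 or more, 21.0% held a MEF2-type core and 5.55% held the EGR site. E-boxes in such windows are thus common, and a match or its absence describes these letters only.

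Myod1 and Myog read well above the floor in every RNA, Myf5 was under it in every RNA, and Myf6 was well above it in 2 RNAs, just above it in the wildtype RNA and under it in RNA275. The truncated Egr3 RNA had 3.10-fold more Myf6 signal than the wildtype RNA, but Myod1 was 1.31-fold lower in it and Myog 1.28-fold lower. The members therefore did not differ in a single direction. Signals are linear intensities, 1 value per probe set, and the floor is 67.6 on type A and 112.6 on type B. They were set at the 50th and 60th percentiles, by array type, over the truncated Egr3 and wildtype arrays pooled, and signals under the floor were set to it before log2 was taken. A signal depends on the probe set as well as on the RNA, so levels are compared between RNAs and not between genes.

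**Figure D1:**
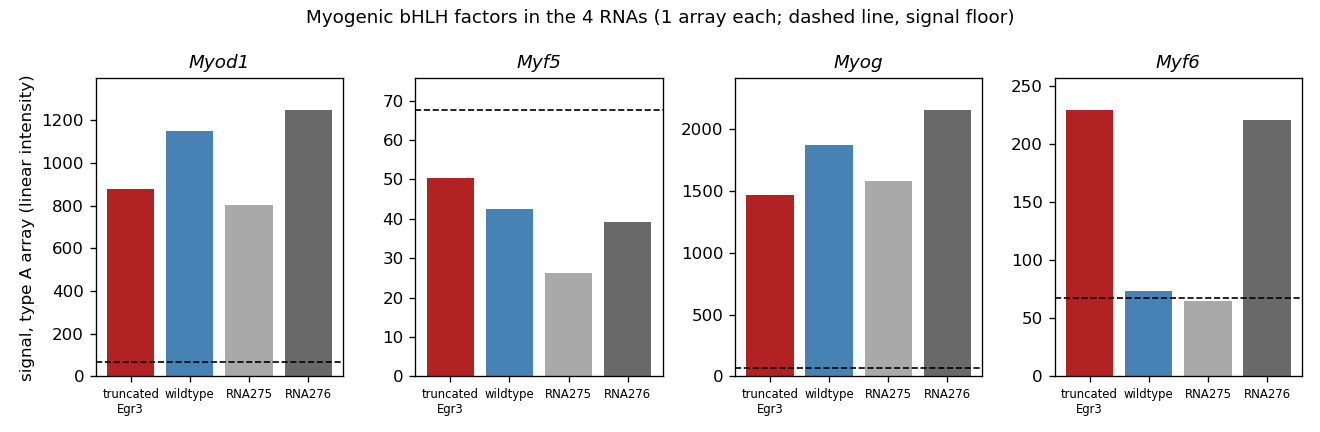
Signal of each member's type A probe set (linear intensity, y axis) in the truncated Egr3, wildtype, RNA275 and RNA276 RNAs (x axis), 1 array per bar, with the signal floor of 67.6 as a dashed line and a separate y scale in each panel. Myod1 and Myog stand well above the floor in all 4 RNAs, Myf5 is below it in all 4, and Myf6 is well above it in the truncated Egr3 RNA and RNA276.

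Myod1, the commitment factor that also activates many muscle genes in myotubes, read 879 in the truncated Egr3 RNA, against 1150 in the wildtype RNA, and 805 in RNA275 and 1247 in RNA276. The truncated Egr3 RNA and RNA275 were thus the lower pair and the wildtype RNA and RNA276 the higher pair. The log2 difference of truncated Egr3 minus wildtype was -0.39. The lowest of the 4 signals was 11.9 times the floor and the range over the 4 RNAs was 1.55-fold. The other Myod1 probe set, on type B, read 18.7 in the truncated Egr3 RNA, 18.8 in the wildtype RNA, 18.0 in RNA275 and 16.5 in RNA276. All 4 of those signals are under the type B floor, so that probe set gives no second reading of Myod1.

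Myog, the factor of terminal differentiation, read 1470 in the truncated Egr3 RNA, against 1877 in the wildtype RNA, and 1585 in RNA275 and 2154 in RNA276. The truncated Egr3 RNA was the lowest of the 4 and RNA276 the highest, at 1.47 times the lowest. The log2 difference of truncated Egr3 minus wildtype was -0.35. Myog was at least 21.8 times the floor in every RNA.

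Myf6, the factor of adult fibres, read 229 in the truncated Egr3 RNA, against 73.7 in the wildtype RNA, and 65.0 in RNA275 and 220 in RNA276. It was well above the floor in the truncated Egr3 RNA and RNA276, just above it in the wildtype RNA, and under it in RNA275. The log2 difference of truncated Egr3 minus wildtype was 1.63. Because RNA275 was under the floor, the range over the 4 RNAs was at least 3.39-fold. With the higher floor of 101.5 the wildtype signal is also a bound, and Myf6 was then at least 1.17 higher in log2.

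Myf5, the other commitment factor, read 50.4 in the truncated Egr3 RNA, 42.6 in the wildtype RNA, 26.4 in RNA275 and 39.1 in RNA276. All of these lie under the floor, so Myf5 has no fold here. Its neighbour Myf6 was well above the floor in 2 of the same RNAs.

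The spread between cultures is unknown, and the error that could be measured is technical. Over 100 probe sets shared by the array types, the SD of a single log2 difference of truncated Egr3 minus wildtype was 0.174. Those probe sets are mostly bright, so dim signals such as that of Myf6 in the wildtype RNA may vary more. The Myf6 difference was 9.39 times that SD, and those of Myod1 and Myog were 2.23 and 2.02 times it. On the same shared probe sets the log2 difference on type A minus that on type B had a mean of -0.14. The SD does not include this offset, and the 3 measured members are all read on type A. Each of the 3 rests on 1 probe set above the floor. For scale, different probe sets of the same gene differed by a root mean square of 0.388 in the same log2 difference, over 9695 pairs.

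In order of signal, Myf6 ran from the truncated Egr3 RNA through RNA276 and wildtype to RNA275. The step between RNA276 and wildtype was 1.58 in log2, and the step between truncated Egr3 and RNA276, 0.06, was below the technical SD of that pair. The step from wildtype to RNA275 was at least 0.13, since RNA275 was under the floor, and is not set against an SD. For Myod1 the order was RNA276, wildtype, truncated Egr3 and RNA275, with a step of 0.39 in the middle and outer steps of 0.12 and 0.13 that were below the SDs of their pairs. For Myog the order was RNA276, wildtype, RNA275 and truncated Egr3, with steps of 0.20, 0.24 and 0.11, none of them above 2 SDs. RNA276 and wildtype held the top places for both Myod1 and Myog. With quantile normalization the wildtype RNA was above RNA276 for Myod1, at 1182 against 1165, and the Myf6 signals of truncated Egr3 and RNA276 were both 226. With equal medians Myf6 read 224 in the truncated Egr3 RNA and 240 in RNA276, which put RNA276 first.

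Among all 10307 measured genes, 55 (0.534%) were past 2-fold towards the truncated Egr3 RNA and 116 (1.13%) past 2-fold towards the wildtype RNA. Either direction together made 1.66%. Of the 3 measured members 1, Myf6, was past 2-fold, and none was 2-fold lower. Giving the arrays equal medians moved the share of these calls that were higher in the truncated Egr3 RNA to 48.3%, against 32.2% in the deposited scale. Myf6 was past 2-fold in each scaling and with each floor tried.

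On type A, 4 of 7239 measured genes had a higher log2 difference than Myf6. Among 2352 other genes whose mean log2 signal lay within 0.5 of that of Myf6, 4 differed by as much in either direction. Over the 4 RNAs, 97.7% of 7625 type A genes above the floor in any RNA spanned a smaller log2 range than Myf6, against 61.8% for Myod1 and 52.9% for Myog. Differences as large as those of Myod1 and Myog were more common. At like brightness, 70 of 481 genes (14.6%) differed by at least as much as Myod1, and 28 of 217 (12.9%) by at least as much as Myog. Bright genes as a class also read slightly lower in the truncated Egr3 RNA. The median log2 difference of genes as bright as Myog was -0.08 and that of genes as bright as Myod1 was -0.05. After an intensity-dependent loess, which removes that trend, the differences were -0.37 for Myod1 and -0.30 for Myog.

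**Figure D2:**
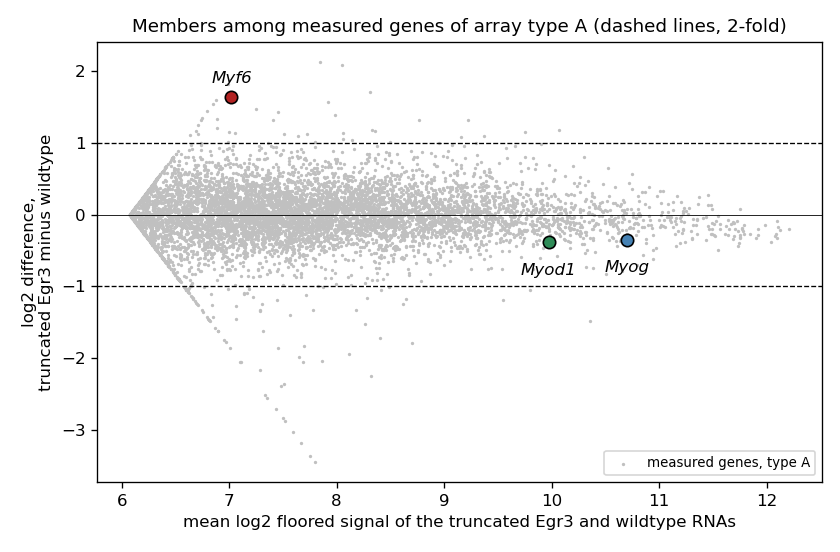
Log2 difference of truncated Egr3 minus wildtype (y axis) against the mean log2 floored signal of these RNAs (x axis) for the 7239 measured genes of array type A, 1 grey point per gene, with dashed lines at 2-fold. Myf6 (1.63) stands above nearly all genes, while Myod1 (-0.39) and Myog (-0.35) lie below most genes of their brightness; the straight edges on the left are genes with 1 array at the floor.

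Genes that act with the myogenic bHLH factors or are switched on with them were examined as lists, described by their counts and medians. Beside these, the median log2 difference of all measured genes was 0.00, and 50.1% of them were above 0.

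The first list, named for E proteins and inhibitory HLH or bHLH proteins, held 24 genes, of which 18 were measured. Some of its repressors, such as Snai1, are not HLH proteins. None was 2-fold apart, 12 were lower and 6 higher in the truncated Egr3 RNA, and the median was -0.14. The E protein gene Tcf3 read 281 in the truncated Egr3 RNA, 339 in the wildtype RNA, 212 in RNA275 and 268 in RNA276. Tcf4, another E protein gene, read 608 in the truncated Egr3 RNA, 644 in the wildtype RNA, 417 in RNA275 and 247 in RNA276. The other measured Tcf4 probe sets differed in sign, with log2 differences from -0.22 to 0.34. The third, Tcf12, had a log2 difference of 0.32 by its brightest probe set, but its 4 other probe sets had the opposite sign, between -0.11 and -0.42. The E protein genes were thus all measured, and none was far apart between the truncated Egr3 and wildtype RNAs.

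Among the inhibitors, Id1 read 150 in the truncated Egr3 RNA and 242 in the wildtype RNA, and Id3 read 130 in the truncated Egr3 RNA and 185 in the wildtype RNA. Id2 was 92.8 in the truncated Egr3 RNA and under the floor, at 59.0, in the wildtype RNA, while its other measured probe set gave a difference of -0.11. Snai1, an E-box repressor, and Bhlhe40, a bHLH repressor, led the positive side of the list at 0.85 and 0.50. The largest negative difference was that of Hey1, a bHLH repressor downstream of Notch, which read 38.5, under the floor, in the truncated Egr3 RNA and 124 in the wildtype RNA. Its log2 difference of -0.87 is therefore a bound.

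Of 38 cofactors of the members, 27 were measured, 16 lower and 11 higher in the truncated Egr3 RNA, with a median of -0.15. The 1 cofactor past 2-fold was Mamstr, a coactivator of the MEF2 factors, with which the myogenic bHLH factors share many target genes. Mamstr read 236 in the truncated Egr3 RNA, against 101 in the wildtype RNA, and 130 in RNA275 and 245 in RNA276. Its wildtype signal is under the type B floor, so the difference is at least 2.10-fold, and with the higher floor it was at least 0.60 in log2, under 2-fold. As with Myf6, the truncated Egr3 RNA and RNA276 were the higher pair. The other Mamstr probe set read 142 in the truncated Egr3 RNA, 89.0 in the wildtype RNA, 175 in RNA275 and 244 in RNA276, which keeps the direction but puts RNA275 above truncated Egr3. Hdac5, a class II histone deacetylase that represses MEF2, had a log2 difference of 0.47, and Tead4 and Vgll2, a TEAD factor and a TEAD cofactor of muscle, had differences of -0.60 and -0.59.

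All 49 genes of the muscle differentiation list were measured. Of these, 34 were lower and 15 higher in the truncated Egr3 RNA, and the median was -0.15. Many are very bright, and with the intensity-dependent loess the median was -0.12, and with equal medians -0.09, with 28 lower and 21 higher. The 1 gene past 2-fold was Mymx, which encodes a small membrane protein that opens the fusion pore between myoblasts and is read here by 1 probe set. Mymx read 1446 in the truncated Egr3 RNA, against 3082 in the wildtype RNA, and 3878 in RNA275 and 2545 in RNA276. The truncated Egr3 RNA was the lowest of the 4. Its log2 difference was -1.09, and -0.94 with equal medians, which is under 2-fold. Mymk, its partner in fusion, read 1596 in the truncated Egr3 RNA and 1666 in the wildtype RNA, a log2 difference of -0.06.

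Cdkn1c, an inhibitor of cyclin-dependent kinases, had the next largest negative difference, -0.74. Cdkn1a, another such inhibitor, which Myod1 is known to induce, had a difference of -0.50. Ckm, muscle creatine kinase, was at -0.16. Chrna1, the acetylcholine receptor alpha subunit, was at -0.17. The largest positive differences were those of Myom1, an M-band protein, at 0.63, and Jph1, a junctophilin of the triad, at 0.50. A brighter Jph1 probe set on type B gave a smaller difference of 0.15. Myom1 read 135 in the truncated Egr3 RNA, against 87.6 in the wildtype RNA, and 86.3 in RNA275 and 149 in RNA276. Its order over the 4 RNAs shares with Myf6 the higher pair of truncated Egr3 and RNA276. The brightest probe sets of Fgfr1 and Mcm2, described below, had the same higher pair. The share of all genes with that pair was not counted.

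**Figure D3:**
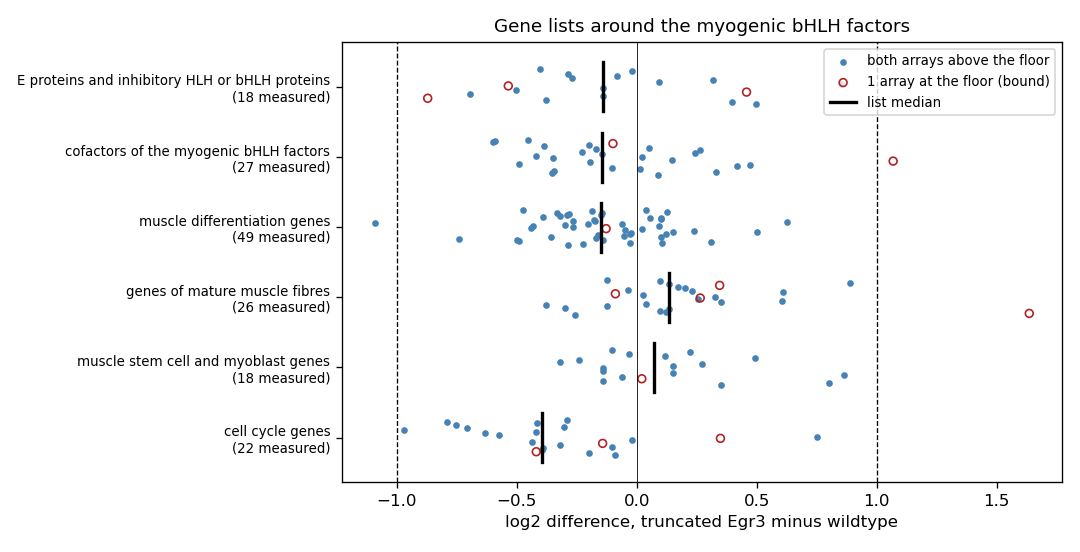
Log2 difference of truncated Egr3 minus wildtype (x axis) for each measured gene of 6 lists (rows), with open circles where 1 array was at the floor and black bars at the list medians. Muscle differentiation genes (median -0.15) lie mostly below 0 and genes of mature fibres (median 0.13) mostly above it; dashed lines mark 2-fold.

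Genes of mature muscle fibres had the opposite balance to the differentiation list. Of 32 listed genes 26 were measured, 19 higher and 7 lower in the truncated Egr3 RNA, with a median of 0.13. The summed signals of the 32 were 23205 in the truncated Egr3 RNA, 21521 in the wildtype RNA, 19155 in RNA275 and 18737 in RNA276. The lowest sum was that of RNA276, but such sums of linear signals rest mostly on bright genes. Mybpc1, a bright gene of the list, read 4870 in the truncated Egr3 RNA, 3821 in the wildtype RNA, 2510 in RNA275 and 1864 in RNA276. The order of the sums without Mybpc1 was not examined. A link of this list to Myf6 was not tested. The medians of this list and of the differentiation list kept their signs with each scaling and with the lower and higher floors. The 1 mature fibre gene past 2-fold was Ampd1, the muscle form of AMP deaminase. It read 350 in the truncated Egr3 RNA, against 94.5 in the wildtype RNA, and 265 in RNA275 and 542 in RNA276. Because the wildtype signal is under the type B floor, the difference is at least 3.11-fold. Sln, which encodes sarcolipin, a regulator of the calcium pump, had a log2 difference of 0.89. Eno3 and Casq2, a muscle enolase and a calcium-binding protein of the sarcoplasmic reticulum, had differences of -0.38 and -0.30.

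In the list of 25 muscle stem cell and myoblast genes 18 were measured, 10 higher and 8 lower in the truncated Egr3 RNA, with a median of 0.07 and none past 2-fold. Pax7 and Pax3, the factors that mark satellite cells and act upstream of Myf5 and Myod1, were under the floor in all 4 RNAs. Pax7 read 61.9 in the truncated Egr3 RNA and 45.8 in the wildtype RNA, and Myf5, which proliferating myoblasts also express, was under the floor as stated above. Fgfr1, a growth factor receptor, and Cd34, a surface marker of quiescent satellite cells, had the largest positive differences, 0.86 and 0.80. The other Fgfr1 probe sets gave smaller differences of 0.40 and 0.38. Ncam1, a cell adhesion molecule, and Notch1, a receptor, had the most negative differences, -0.32 and -0.24, and their other probe sets gave -0.58 to 0.22 for Ncam1 and 0.63 for Notch1.

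Cell cycle genes were, like Myod1 and Myog, lower in the truncated Egr3 RNA. Of 24 listed 22 were measured, and 20 of them were lower in the truncated Egr3 RNA, with a median of -0.39 and none past 2-fold. Mcm6, a subunit of the replicative helicase, read 182 in the truncated Egr3 RNA, against 356 in the wildtype RNA, and 311 in RNA275 and 729 in RNA276. Tk1, a thymidine kinase of S phase, had a log2 difference of -0.79. Mcm2, another helicase subunit, was at 0.75 by its brightest probe set and at -0.32 by its other one. E2f1, an activator of S phase genes, was at 0.35 or more, since its wildtype signal was under the floor. The part of proliferating cells in the values of the members was not tested.

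The cultures carried the markers of myotubes. All 9 myotube markers were measured, with summed signals of 21125 in the truncated Egr3 RNA and 23991 in the wildtype RNA, and none was 2-fold apart. Markers of macrophages and endothelial cells were mostly dim, but some markers of fibroblasts and smooth muscle were bright. Of 12 macrophage markers 10, and of 7 endothelial markers 5, were under the floor in both of these RNAs. Fibroblast markers were measured for 8 of 14 genes, with a median log2 difference of 0.12 and summed signals of 11676 in the truncated Egr3 RNA and 11706 in the wildtype RNA. Of the 8 measured, 5 were higher and 3 lower in the truncated Egr3 RNA. Only the proteoglycan gene Dcn was past 2-fold, at 317 in the truncated Egr3 RNA and 157 in the wildtype RNA. With intensity-dependent loess 0 of the 8 were past 2-fold. Smooth muscle and pericyte markers were measured for 7 of 11 genes, with a median log2 difference of -0.46 and summed signals of 6663 in the truncated Egr3 RNA and 8467 in the wildtype RNA. Des, at 1659 in the truncated Egr3 RNA and 1523 in the wildtype RNA, is also a listed myotube marker and enters both sums. Of 8 Schwann cell and glial markers 6 were on the arrays and 4 were measured, with a median of -0.45. Of 7 adipocyte markers 6 were on the arrays and 3 were measured, with a median of 0.23. The part of these cells in the members' values was not tested. In such bulk RNA, fewer cells of a type and less RNA per cell cannot be told apart.

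Over the 4 RNAs, the genes with the pattern most like each member were found by Euclidean distance between log2 signals centred on their mean, among 7624 other genes of type A. For Myf6 the nearest were Tcim at a distance of 0.64, Cited2, a coregulator that binds CBP and p300, at 0.67, and Dcxr, a carbonyl reductase, at 0.68. No gene lay within 0.5 of Myf6, whereas 1836 lay within 0.5 of Myod1 and 2738 within 0.5 of Myog, whose ranges over the 4 RNAs are smaller than that of Myf6. Cited2 read 634 in the truncated Egr3 RNA, against 349 in the wildtype RNA, and 338 in RNA275 and 870 in RNA276, and its other probe set had the same higher pair. Dcxr read 154 in the truncated Egr3 RNA, against 69.0 in the wildtype RNA, and 81.5 in RNA275 and 261 in RNA276. Tcim read 205 in the truncated Egr3 RNA, 40.4 in the wildtype RNA, 79.9 in RNA275 and 140 in RNA276, but its type B probe set was lowest in RNA276, at 102.

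The genes nearest Myod1 were Opa3, a mitochondrial protein, and Tpm4 and Tpm3, tropomyosins, at distances of 0.07. Tpm4 read 1368 in the truncated Egr3 RNA, against 1758 in the wildtype RNA, and 1312 in RNA275 and 1955 in RNA276. Those nearest Myog were Cenpm, a centromere protein, Ppm1g, a protein phosphatase, and Bcar3, an adaptor protein, at 0.04, 0.05 and 0.06. With 4 points, and with 152 genes within 0.25 of Myod1 and 324 within 0.25 of Myog, such likeness describes these RNAs only. For each of Opa3, Tpm3 and Bcar3, at least 1 other probe set had a log2 difference of the opposite sign.

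**Figure D4:**
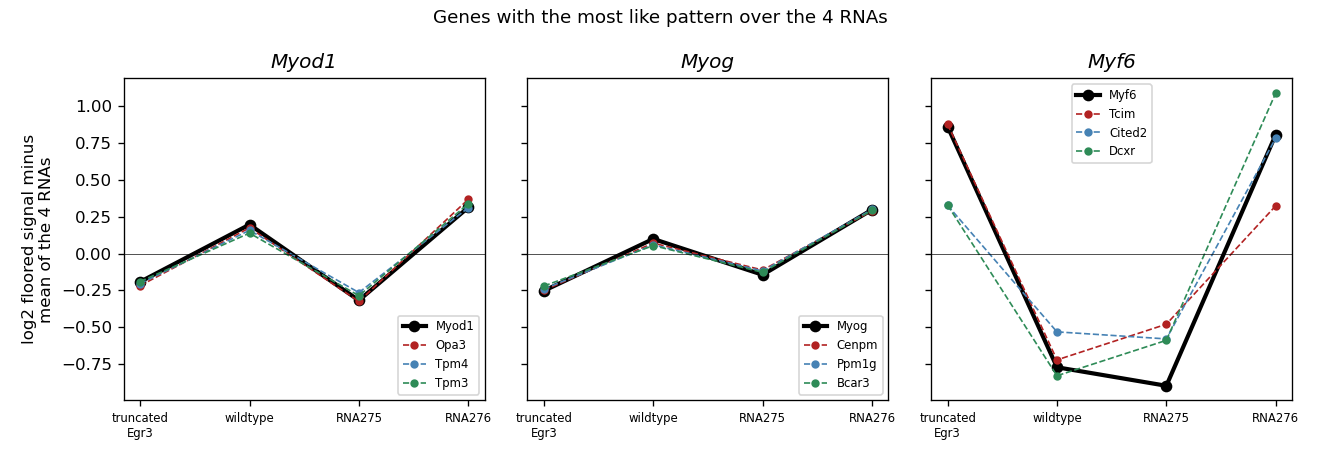
Log2 floored signal minus its mean over the 4 RNAs (y axis) in each RNA (x axis) for Myod1, Myog and Myf6 (black) and the 3 type A genes nearest to each (dashed, coloured). Myod1 and Myog span 0.63 and 0.55 log2 units and their nearest genes lie close to them, while Myf6 spans at least 1.76 and its nearest genes lie farther off.

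Values were also read for 4 protein-coding genes that lie beside Myod1, Myf5 or Myog on the chromosome, chosen for display after the members' values were seen. Of the genes directly beside Myf6, Myf5 was under the floor and Ptprq was not analysed here, and neither was Adora1, beside Myog. Lin7a, on the other side of Myf5 from Myf6, read 139 in the truncated Egr3 RNA, 143 in the wildtype RNA, 119 in RNA275 and 62.3 in RNA276. Kcnc1, beside Myod1, had a log2 difference of -0.29, but its other measured probe sets gave 0.09 and -0.02. Otog, on the other side of Myod1, had a difference of -0.77. Ppfia4, beside Myog, had a difference of -0.14.

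As a check of the labels, the type A probe set of Egr3 read 830 in the truncated Egr3 RNA, 769 in the wildtype RNA, 1454 in RNA275 and 2627 in RNA276, and the type B probe set read 1039 in the truncated Egr3 RNA, 1420 in the wildtype RNA, 1203 in RNA275 and 771 in RNA276. These probe sets put the RNAs in different orders, and where they lie relative to the truncation was not analysed here. All 8 arrays had a 2% trimmed mean of 150.0. The 3' to 5' ratio of the beta-actin controls lay between 1.05 and 1.19, and that of the Gapdh controls between 0.72 and 0.83. Between 47.0% and 50.6% of type A probe sets were above the floor, fewest in RNA276.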

How the data were processed

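Total RNA of 4 mouse myotube RNAs was measured on 2 array types. The deposited values are linear intensity values, 1 per probe set, from the authors; no source used here names the software, normalization or genome build. The deposited arrays share a trimmed mean, and that scale was kept, which assumes that total signal is alike. Genes were named from the platform annotation and updated by gene number through RefSeq (20351 of 20380 single-symbol probe sets matched on type A, 14486 of 14661 on type B); those without a single symbol were left unnamed. The probe set with the highest mean signal over the 4 RNAs stood for a gene, with type A preferred. Signals were floored and turned to log2, and a gene counted as measured when the truncated Egr3 or the wildtype array was above the floor, so small differences of dim genes are compressed. A fold with 1 array at the floor is a bound. The number of arrays limits the precision. The members and the lists were chosen with earlier results of these data known.

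Named from each list were the 2 measured genes with the largest positive and the 2 with the largest negative difference, the E protein and Id genes Tcf3, Tcf4, Tcf12, Id1, Id2 and Id3, and the 3 genes nearest each measured member. Mymk, Cdkn1a, Ckm, Chrna1, Mybpc1, Pax7, Pax3, Des and Dcn were named after their values were seen. The marker lists are otherwise given only by counts, sums and medians. The alternatives were quantile normalization, equal medians, loess (span 0.3), floors at the 40th and 50th or the 60th and 70th percentiles of types A and B, no floor (minimum signal 1), 1.5-fold and 3-fold thresholds, and the median over probe sets. Python 3.11.15, numpy 2.4.6, pandas 2.3.3 and statsmodels 0.14.6 were used.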

Additional observations from a re-analysis of the deposited data

Results flagged for a closer look

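RNA276, which the labels place in no group and the comparison does not use, had a Myf6 signal of 220, which is at least 2-fold above the 73.7 of the wildtype RNA. No other probe set of a member was 2-fold above the wildtype RNA in RNA276 or RNA275.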

How the results depend on the processing

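Myod1 and Myog were lower and Myf6 higher in the truncated Egr3 RNA under all 7 alternatives of scale, floor and probe set, with log2 differences between -0.39 and -0.19, -0.35 and -0.29, and 1.17 and 1.70. The count of members past 2-fold was 1 throughout, also at 1.5-fold and 3-fold. Myf6 moved beyond the technical SD with the higher floor, to a bound of 1.17, since the wildtype array was then at the floor. Myod1 moved to -0.19 with the median over its probe sets, since its second probe set is under the floor in both RNAs. Myf5 was measured only with the lower floor (0.19) and with no floor (0.24). Over all genes, the counts higher and lower in the truncated Egr3 RNA were 87 and 93 with equal medians, 84 and 185 with the lower floor, 39 and 76 with the higher floor, 603 and 1206 with no floor, 484 and 473 at 1.5-fold, and 8 and 38 at 3-fold. Fewer or more genes are measured as the floor moves; the cause of the shift with equal medians was not tested. Beside 55 and 116 in the deposited scale, the other alternatives stayed within 1.5 times. No paired analysis was possible because each group has 1 RNA, for which reason no replicate could be left out either.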
